A study of Mus musculus with 18 samples.

Results

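Retinas with different mutant forms of the same gene were compared directly: retina homozygous for the knock-in Abca4 L541P;A1038V, 3 libraries, against retina without functional Abca4 (Abca4-/-), 3 libraries. All genes that passed the expression filter were compared, 14699 of the 22558 in the tables. Each difference below is knock-in minus knockout. The study is mouse RNA-seq of retina and of RPE/choroid (the retinal pigment epithelium, dissected with the vascular layer behind it), 18 samples in all, and 3 wild-type retinal libraries stand beside the compared groups. All mice were 30 days old and of a mixed 129SV and C57BL/6 background. The labels state no further allele or treatment in any group, do not describe the deletion in the knockout, and do not say how many mice gave a library, so a p-value below reflects how far these libraries vary, which may be technical.

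Abca4 encodes a transporter of photoreceptor outer segment discs that flips retinal bound to phosphatidylethanolamine to the cytosolic side, where it can be reduced. When it fails, bisretinoids such as A2E build up in the discs and then in the RPE that engulfs them, and in people its loss causes Stargardt macular degeneration. A knockout removes the protein, whereas a missense allele can leave a protein that misfolds, and the direct comparison asks which transcripts differ between those states.

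The sites of both substitutions are shown here because they are the designed difference of the knock-in allele. In the reference transcript Abca4-201 (GENCODE M21, GRCm38, plus strand of chromosome 3, 50 exons, 2310 codons), the codon of L541P lies at chr3:122102741-122102743 in exon 12, and that of A1038V at chr3:122126182-122126184 in exon 21. The reference codons are in capitals, with 10 codons on each side. These are reference bases and not reads of the knock-in. L541P replaces leucine by proline at the first site, and A1038V replaces alanine by valine at the second.
Abca4 at L541P: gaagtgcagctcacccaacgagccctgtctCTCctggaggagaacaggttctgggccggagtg
Abca4 at A1038V: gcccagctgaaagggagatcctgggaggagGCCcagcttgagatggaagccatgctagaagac

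Retinal libraries held 11.6 to 23.6 M assigned fragments. Xist and the summed level of Y-linked genes marked every knock-in library, knockout 1 and 2 and wild-type 2 as female. They marked knockout 0 and wild-type 0 and 1 as male. The numbers are those of the deposited tables, and nothing links them to the labels' own. Rod phototransduction transcripts, the defining RNA of this tissue, summed to 27911 to 31627 FPKM (Cufflinks' measure of fragments scaled for transcript length and library size) in all 9 libraries. Lens transcripts stood apart, at 8107 FPKM in knock-in 0, 7662 in knockout 1 and 15578 in knockout 2, against 61.4 to 1122 in the other 6. Knockout 2 stood apart further through Lars2, a mitochondrial tRNA synthetase gene, with 22206 FPKM against 1753 to 4002 elsewhere.

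Abca4 itself was 233, 197 and 182 FPKM in knock-in libraries 0, 1 and 2. It was 81.8, 80.3 and 73.9 FPKM in knockout and 282, 251 and 228 FPKM in wild-type libraries. The compared groups did not overlap, and knock-in retina lay above knockout by log2 1.38 (2.60-fold, SE 0.0799, adjusted p = 5.54e-07). The gene occupies chr3:121747378-121882979 in mm9. Fragments of the whole gene were counted, so the knockout value shows how much transcript remained but not which part of it.

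Knock-in and knockout retina differed in 185 genes at an adjusted p under 0.05, 1.26% of those tested. Of these, 100 were higher in knock-in (0.680%) and 85 lower (0.578%). Most differences were small: 46 genes differed at least 2-fold, 18 of them higher and 28 lower in knock-in, while 55 of the higher and 38 of the lower genes differed by less than 1.5-fold. The median log2 difference was 0.54 over the higher genes and -0.70 over the lower genes. With Rik and Gm symbols left aside, Pttg1, Ppara, Tc2n and Fgf2 fell most among called genes with a mean of at least 1 FPKM in a group. The unnamed transcripts 2610507I01Rik (log2 -2.75) and 5430419D17Rik (-2.55) fell more than Fgf2 (-2.09). Wdr63, Tcea3, Rab37, Kif27 and Abca4 rose most by the same rule.

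The test was edgeR's quasi-likelihood test with Benjamini-Hochberg adjustment over all tested genes. An unadjusted p under 0.05 was reached by 1716 genes, where 735 are expected by chance, and the values of the compared groups did not overlap in 170 of the 185 genes and in 10.8% of all tested genes. DESeq2 called 324 genes (2.21%), 180 of them among the 185, and the authors' deposited table calls 323 of 13797 (2.34%), 116 of them among the 185. Leaving out 1 of the 9 libraries gave 103 (without knockout 1) to 216 calls (without wild-type 2), 110 without knock-in 1, and 70 genes were called in each of these 9 fits. Without knockout 0, the compared libraries left were all female, and 202 genes were called, 131 of them among the 185. A term for sex gave 289 calls and kept 173. Transcripts of RPE markers summed to 242 to 250 FPKM in knock-in, 257 to 293 in knockout and 188 to 211 in wild-type libraries, and with a term for their level 90 genes were called, 50 of them among the 185. The marker level did not overlap between the genotypes, so RPE content and genotype cannot be told apart by this term. The cause of that drop was not tested.

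**Figure D1:**
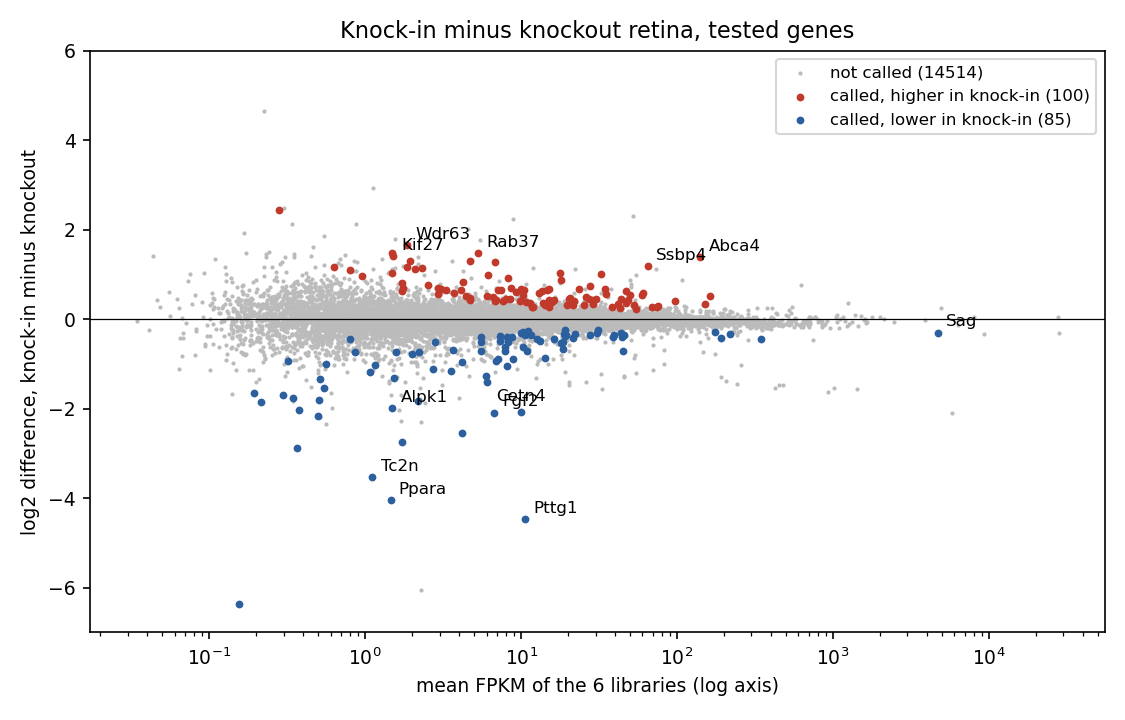
Log2 difference between knock-in and knockout retina (vertical) against the mean FPKM of the 6 libraries (horizontal, log axis), 1 point per tested gene; genes listed at 0 in all 6 are not drawn. Red points are the 100 genes called higher and blue points the 85 called lower in knock-in; the strongest blue points, among them Pttg1 and Ppara, lie farther from 0 than the red points above 1 FPKM.

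The wild-type libraries, which took part in the fit through the expression filter, the scaling and the shared spread, give the level of each gene with intact Abca4. The wild-type mean lay within the range of the 3 knock-in libraries alone for 69 of the 185 genes and within the knockout range alone for 25. It lay in both ranges for 1 gene. For the other 90 it lay in neither, 65 times between the groups and 25 times outside all 6 libraries. By log2 distance of the means, wild type was nearer to knock-in for 118 genes and nearer to knockout for 67. The values against wild type given below use the same knock-in and knockout libraries and are set side by side for description only.

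Many of the largest falls were transcripts that only the knockout libraries held at a raised level. Ppara, a nuclear receptor that senses fatty acids and drives their oxidation, was 0.148, 0.158 and 0.185 FPKM in knock-in and 2.82, 2.91 and 2.50 in knockout libraries. Wild-type libraries held 0.121, 0.155 and 0.126 FPKM. All knockout libraries were thus high and the other 6 low, and knock-in lay under knockout by log2 -4.05 (16.6-fold, SE 0.145, adjusted p = 1.51e-09). Set against wild type, knockout stood at log2 4.32 and knock-in at 0.26.

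Pttg1, which encodes securin, the inhibitor of chromatid separation, was 1.37, 0.687 and 0.373 FPKM in knock-in and 14.1, 13.4 and 33.5 in knockout libraries. Wild-type libraries held 1.01, 0.515 and 0.751 FPKM. Knockout 2 was the highest, and the groups did not overlap (log2 -4.46, 22.1-fold, SE 0.505, adjusted p = 0.00488). Tc2n, a protein with paired C2 domains, showed the same order, with 0.158, 0.170 and 0.111 FPKM in knock-in, 1.08, 1.49 and 3.63 in knockout and 0.0296 to 0.184 in wild-type libraries (log2 -3.53, SE 0.397, adjusted p = 5.31e-04). Spata6, needed for the neck of the sperm tail, was 2.13, 2.07 and 2.39 FPKM in knock-in and 4.35, 4.22 and 6.20 in knockout libraries (log2 -1.16, adjusted p = 4.56e-04). Chrna5, a subunit of neuronal nicotinic receptors, was 1.62, 2.11 and 1.45 FPKM in knock-in and 3.41, 3.78 and 4.06 in knockout libraries (log2 -1.11, adjusted p = 0.00346). In both of these genes the compared groups were separate, and wild-type libraries, at 2.58 to 3.21 FPKM for Spata6 and 1.65 to 2.39 for Chrna5, lay below knockout.

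Other falls were low in knock-in while knockout matched or neared wild type. Alpk1, a kinase that senses a sugar of bacterial lipopolysaccharide synthesis, was 0.635, 0.621 and 0.534 FPKM in knock-in, 2.29, 2.40 and 2.50 in knockout and 2.31, 2.80 and 2.51 in wild-type libraries. Only the knock-in libraries were low (log2 -1.99, 3.97-fold, SE 0.124, adjusted p = 1.04e-06), and set against wild type, knockout stood at log2 -0.08 and knock-in at -2.07. Tifa, the adaptor that Alpk1 phosphorylates and its neighbour on the chromosome, was 4.45, 4.65 and 6.05 FPKM in knock-in and 9.40, 8.45 and 9.60 in knockout libraries (log2 -0.89, adjusted p = 5.31e-04), with wild type at 6.73 to 8.89. Lyrm7, an assembly factor of respiratory complex III, was 0.633, 1.12 and 0.784 FPKM in knock-in, 1.65, 1.72 and 3.29 in knockout and 2.33 to 2.56 in wild-type libraries (log2 -1.31, adjusted p = 0.0235). Its call was lost without knock-in 0 or 2 or knockout 2 (adjusted p up to 0.0925).

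Among the largest rises, several were transcripts that were high in knock-in alone. Rab37, a small GTPase of regulated secretion, was 7.95, 6.68 and 8.84 FPKM in knock-in, 3.03, 3.16 and 2.23 in knockout and 3.26, 2.08 and 2.97 in wild-type libraries (log2 1.47, 2.77-fold, SE 0.184, adjusted p = 0.00173). Ssbp4, a single-stranded DNA-binding protein, was 90.9, 97.1 and 79.3 FPKM in knock-in, 45.5, 49.7 and 27.0 in knockout and 26.3 to 56.8 in wild-type libraries (log2 1.18, SE 0.128, adjusted p = 0.00158). In both genes every knock-in library exceeded the other 6, while knockout and wild type overlapped. Sema7a, a membrane-anchored semaphorin, was 23.8, 23.9 and 22.4 FPKM in knock-in and 14.8, 14.6 and 9.69 in knockout libraries (log2 0.87, adjusted p = 2.06e-04), with wild type at 11.5 to 18.1. Osgep, an enzyme of tRNA modification, was 33.0, 36.3 and 34.4 FPKM in knock-in and 21.3, 21.9 and 18.8 in knockout libraries (log2 0.75, adjusted p = 2.06e-04), with wild type at 23.6 to 27.1. Tcea3, a transcription elongation factor, was 1.75, 1.73 and 3.14 FPKM in knock-in and 0.746, 0.940 and 0.605 in knockout libraries (log2 1.48, adjusted p = 0.0246). Its call was lost without knock-in 2 or any 1 knockout library (adjusted p up to 0.0954).

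Other rises were transcripts that were low in knockout alone. Pla2g4b, a cytosolic phospholipase A2, was 3.13, 3.06 and 2.02 FPKM in knock-in and 1.28, 1.12 and 0.928 in knockout libraries (log2 1.30, adjusted p = 8.50e-04), with wild type at 1.94 to 3.16. Its neighbour Jmjd7 was 7.82, 7.83 and 4.49 FPKM in knock-in and 2.74, 2.66 and 2.68 in knockout libraries (log2 1.31, adjusted p = 0.0165). Readthrough transcripts join these genes, so their reads may be shared, and the call of Jmjd7 was lost without knock-in 0 or 1 or knockout 0 or 1 (adjusted p up to 0.109). Ckmt1, the mitochondrial creatine kinase, was 73.8, 76.8 and 65.6 FPKM in knock-in and 50.4, 51.9 and 43.8 in knockout libraries (log2 0.58, adjusted p = 2.06e-04), with wild type at 56.1 to 71.5.

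**Figure D2:**
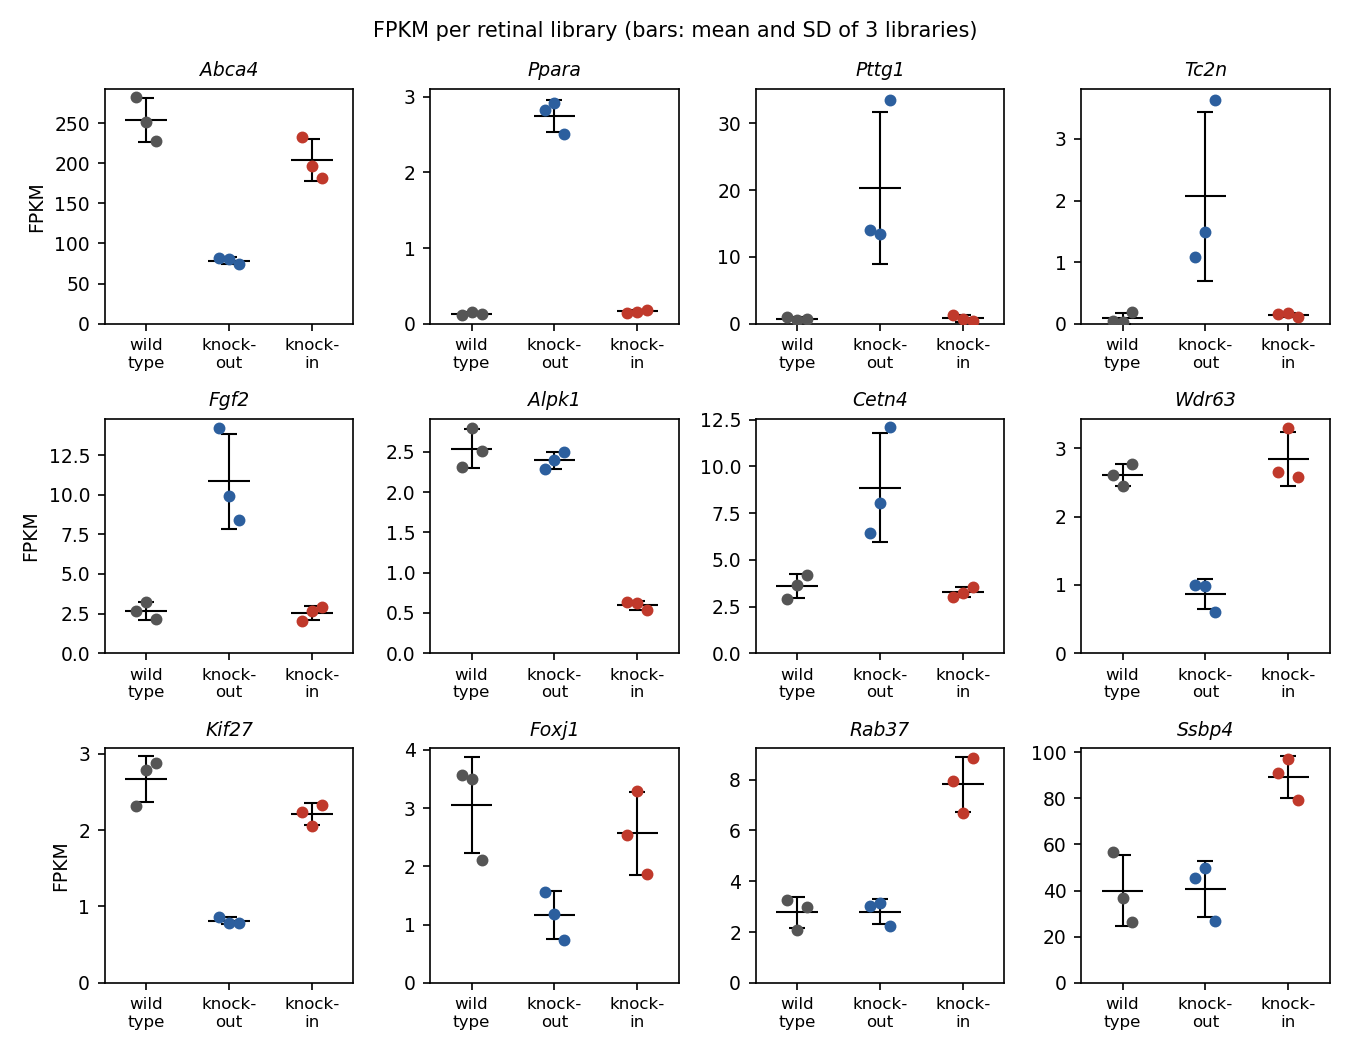
FPKM of 12 genes in each retinal library (points) of wild-type, knockout and knock-in mice, with the mean and SD of 3 libraries as bars; every vertical axis starts at 0. Ppara, Pttg1, Tc2n, Fgf2 and Cetn4 are high in knockout alone, Alpk1 is low and Rab37 and Ssbp4 are high in knock-in alone, and Wdr63, Kif27 and Foxj1 are low in knockout alone.

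Genes of motile cilia were the list with the most calls. Foxj1 is the transcription factor that switches this gene set on, and RFX factors bind the same promoters. Of the 26 tested members, 5 were higher in knock-in, 0 lower and 21 did not pass, beside 1.26% called over all tested genes. Their median log2 difference was 0.29 against -0.00 over all tested genes, and 18 lay above 0. Over all 14699 tested genes 7262 lay above 0. Leaving out each library gave 4 to 6 higher members, and 1 lower without knock-in 0.

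Wdr63, an axonemal dynein-associated protein, was 2.65, 3.30 and 2.58 FPKM in knock-in and 0.996, 0.979 and 0.607 in knockout libraries (log2 1.66, SE 0.194, adjusted p = 7.92e-04). Kif27, a kinesin of motile cilium assembly, was 2.24, 2.05 and 2.33 FPKM in knock-in and 0.866, 0.784 and 0.787 in knockout libraries (log2 1.41, SE 0.137, adjusted p = 1.84e-04). Foxj1 was 2.54, 3.29 and 1.87 FPKM in knock-in and 1.56, 1.18 and 0.740 in knockout libraries (log2 1.17, SE 0.174, adjusted p = 0.00357). In each of these genes all knock-in libraries exceeded all knockout libraries, and the wild-type libraries lay with knock-in, at 2.44 to 2.77, 2.32 to 2.88 and 2.10 to 3.56 FPKM. Ttc21a, a ciliary transport protein, was 2.92, 3.23 and 2.39 FPKM in knock-in and 1.50, 1.47 and 0.916 in knockout libraries (log2 1.13, adjusted p = 0.00521). Dnaic2, a dynein intermediate chain, was 4.03, 4.89 and 3.16 FPKM in knock-in and 2.76, 2.61 and 2.33 in knockout libraries (log2 0.65, adjusted p = 0.0305), and its call was lost in 4 of the 9 fits with a library left out (adjusted p up to 0.156). With a term for RPE markers 3 members stayed called, and Foxj1 and Ttc21a did not.

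The differences did not run through the whole list. The 8 tested dynein heavy chain genes, which the tables carry under the older Dnahc symbols, held 0 called members, with log2 from -0.48 (Dnahc9) to 1.02 (Dnahc2). Rfx3, an activator of ciliary genes, stood at log2 0.00 (adjusted p = 0.993). Of the 27 tested intraflagellar transport genes, whose products build the photoreceptor connecting cilium too, 0 were called and the median was 0.09.

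The promoters of the called cilium genes are shown because these genes moved together and share a known class of activator. The 120 bases before the start were read 5′ to 3′ on the gene's strand from RefSeq (GRCm38.p6), where 4 of the 5 genes had a window. The RFX half-site letters GTTGCTA and GTTGCC were searched on both strands, a choice made after these windows had been seen, and matches are in capitals. In Dnaic2 the run in capitals is a match to GTTGCTA on this strand followed directly by a match to GTTGCC on the other.
Wdr63, chr3:146108037-146108156, minus strand: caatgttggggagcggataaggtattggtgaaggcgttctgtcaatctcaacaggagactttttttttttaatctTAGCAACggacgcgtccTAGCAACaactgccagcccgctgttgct
Ttc21a, chr9:119937486-119937605, plus strand: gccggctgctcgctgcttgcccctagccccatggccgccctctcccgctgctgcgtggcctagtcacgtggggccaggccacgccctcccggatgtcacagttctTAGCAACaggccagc
Dnaic2, chr11:114727299-114727418, plus strand: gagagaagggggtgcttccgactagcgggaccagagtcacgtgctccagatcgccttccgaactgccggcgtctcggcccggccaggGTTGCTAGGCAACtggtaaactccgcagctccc

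The Kif27 window held neither motif. Over all 32851 windows, 1.91% held GTTGCTA and 5.46% GTTGCC. By gene, 12 of the 23 tested cilium genes with a window held either motif (52.2%), against 8.26% of all 27025 gene symbols. A match describes the letters and is no evidence of a bound factor.

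Genes of retinal stress and gliosis tended lower in knock-in, but 1 of them was called. Of 16 tested members, Fgf2 was lower, 0 were higher and 15 did not pass. The median was -0.58, and 14 lay below 0. Knockout 0, the male knockout library, was the highest of the knockout libraries in 10 of the 16, and without it the median was -0.32 with 12 below 0 and 2 called lower. Stat3, the transcription factor of glial reactivity, was 17.5, 16.4 and 14.6 FPKM in knock-in and 34.5, 18.3 and 19.8 in knockout libraries, and Serpina3n, a protease inhibitor of reactive glia, 15.8 to 15.9 in knock-in and 20.5 to 37.1 in knockout libraries, with knockout 0 the highest. Neither was called. Fgf2, basic fibroblast growth factor, a survival factor for photoreceptors, was 2.04, 2.69 and 2.90 FPKM in knock-in, 14.2, 9.89 and 8.42 in knockout and 2.14 to 3.22 in wild-type libraries (log2 -2.09, 4.25-fold, SE 0.232, adjusted p = 4.55e-04). Knockout libraries alone were high. Lcn2, an acute-phase lipocalin, was 1.84 to 2.47 FPKM in knock-in and 2.89 to 5.18 in knockout libraries (log2 -0.95, adjusted p = 0.0871), and the glial filament gene Gfap differed by log2 -0.32 (adjusted p = 0.766).

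Lists of microglia, interferon response and complement genes leaned the same way with few calls. The MHC antigen presentation list stood near 0: of 15 tested genes 9 lay below 0 (median -0.04) and 0 were called. In bulk tissue, fewer cells of a type and less RNA per cell cannot be told apart. Of 20 genes of microglia and macrophages, 1 was lower, 0 were higher and 19 did not pass, with a median of -0.39 and 19 below 0. Their summed level was 62.2 to 71.8 FPKM in knock-in and 110, 85.6 and 78.8 FPKM in knockout libraries. Knockout 0 was the highest knockout library in 17 of the 20, and without it the median was -0.26 with 18 below 0. In knockout 2 C1qa, a complement subunit made by microglia, stood at 4.47 FPKM, under the 4.64 to 5.92 of knock-in libraries. The called member was Ctss, cathepsin S, at 9.47, 9.84 and 11.3 FPKM in knock-in and 22.7, 15.6 and 16.8 in knockout libraries (log2 -0.86, adjusted p = 0.0118), and its call was lost without knock-in 0 or 1 (adjusted p up to 0.0680) and with the RPE term. All 17 interferon response genes lay below 0 (median -0.41) and 0 were called, at an unadjusted p under 0.05 in 7, and without knockout 0 the median was -0.21 with 16 below 0. The smallest adjusted p among them was that of Ifit1, at 0.432 to 0.705 FPKM in knock-in and 0.808 to 1.07 in knockout libraries (log2 -0.89, adjusted p = 0.0538). Of 18 complement genes, 1 was lower, 0 were higher and 17 did not pass (median -0.32). That member, Clu, a chaperone that limits the terminal complement complex, was 311, 294 and 268 FPKM in knock-in, 422, 389 and 378 in knockout and 269 to 287 in wild-type libraries (log2 -0.45, adjusted p = 0.00391). Wild type lay with knock-in.

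Immediate early genes, which neurons switch on within minutes of activity, leaned higher in knock-in: 18 of 22 lay above 0 (median 0.40), 1 was called and 21 did not pass. Their summed level was 235 to 315 FPKM in knock-in, 160 to 223 in knockout and 246 to 256 in wild-type libraries. Knockout 2 was the lowest knockout library in 16 of the 22, and without it the median was 0.33 with 17 above 0. Btg2, an antiproliferative member, was 53.6, 53.5 and 44.9 FPKM in knock-in, 40.4, 36.1 and 35.2 in knockout and 42.6 to 48.7 in wild-type libraries (log2 0.46, adjusted p = 0.00158). Egr1, the best known member, differed by log2 0.79 without passing (adjusted p = 0.612).

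Genes for folding and clearing faulty protein, the lists closest to a misfolding allele, differed little. Of 36 genes of the unfolded protein response and ER quality control, 1 was higher, 0 were lower and 35 did not pass, and the median was 0.01. Hspa5, the ER chaperone BiP, differed by log2 0.06 (adjusted p = 0.862), Ddit3 by -0.04 (0.875) and Xbp1 by 0.05 (0.872). The called member was Asns, asparagine synthetase, a target of the stress factor Atf4, at 33.2, 35.0 and 35.9 FPKM in knock-in, 26.7, 27.6 and 21.4 in knockout and 33.9 to 37.8 in wild-type libraries (log2 0.46, adjusted p = 0.0267). Wild type lay with knock-in, and the call was lost without any 1 knock-in library or without wild-type 0 or 1 (adjusted p up to 0.104). Of 33 proteasome genes 0 were called, though 31 lay below 0 (median -0.07). Of 15 heat shock chaperones 0 were called (median 0.03).

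**Figure D3:**
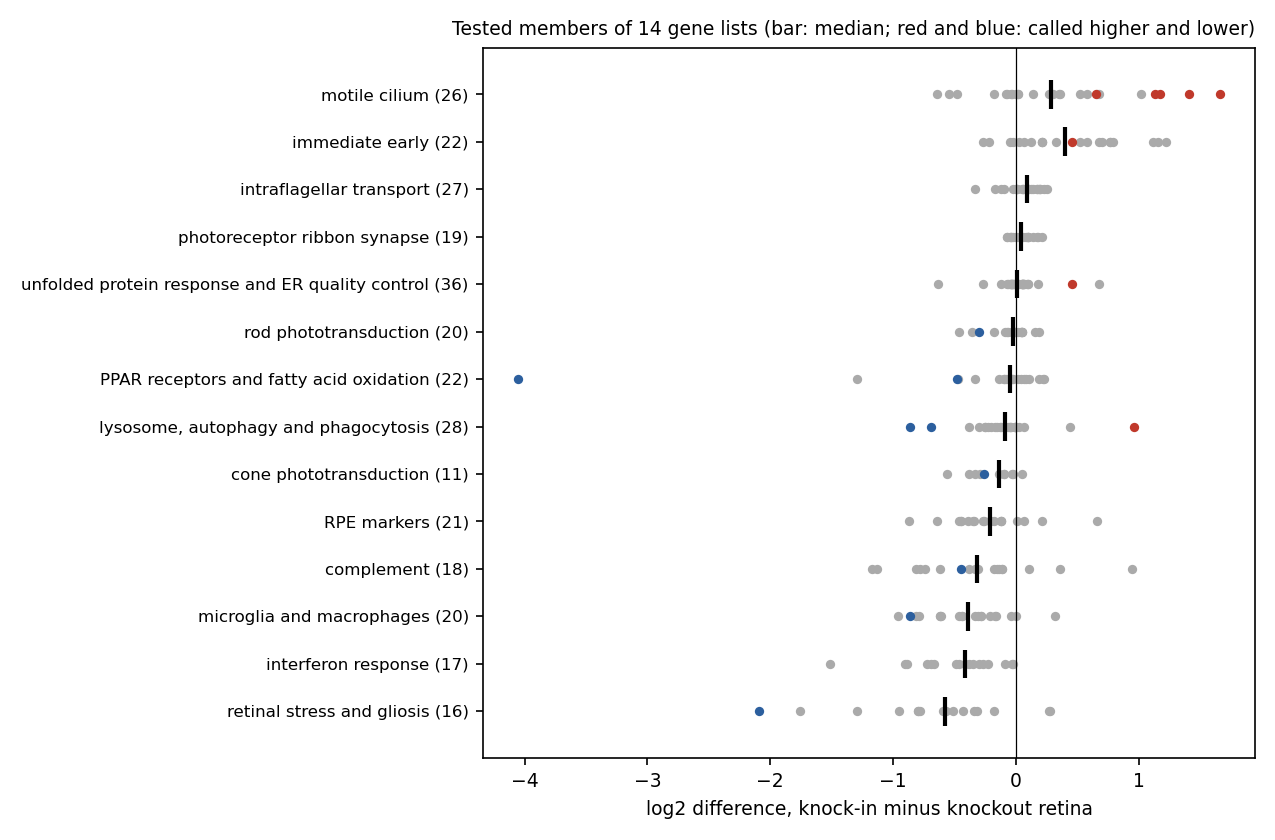
Log2 difference between knock-in and knockout retina for the tested members (points) of 14 gene lists, with the number of tested members in brackets and the median as a black bar. Motile cilium genes hold 5 red points, called higher in knock-in. The stress, interferon, microglia, complement, cone and RPE marker lists lie mostly left of 0 with at most 1 blue point, called lower, each. The lysosome list lies mostly left of 0 too.

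Rod and photoreceptor structure genes were close between the alleles, and cone genes leaned lower in knock-in. Of 20 rod phototransduction genes 1 was lower, 0 were higher and 19 did not pass (median -0.02). The called rod gene was Sag, rod arrestin, which helps end the light response, at 3960, 4304 and 4411 FPKM in knock-in and 4980, 5157 and 5529 in knockout libraries (log2 -0.30, adjusted p = 0.0473). Of 11 cone genes 1 was lower, 0 were higher and 10 did not pass (median -0.14, 10 below 0). Their summed level was 1094 to 1186 FPKM in knock-in, 1245 to 1367 in knockout and 1100 to 1153 in wild-type libraries. The called cone gene was the exchanger Slc24a2 (log2 -0.26, adjusted p = 0.0304). Of 22 photoreceptor structure genes 1 was higher, 0 were lower and 21 did not pass (median 0.02): Rpgrip1, a scaffold of the connecting cilium, was 56.0, 55.3 and 55.4 FPKM in knock-in, 37.5, 40.3 and 47.1 in knockout and 47.6 to 52.2 in wild-type libraries (log2 0.43, adjusted p = 0.0351). Sag, Slc24a2 and Rpgrip1 each lost their call in 6 of the 9 fits with a library left out, with adjusted p up to 0.164, 0.141 and 0.150.

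Retinoid genes beside Abca4 held 0 called of 18 (median -0.14), and RPE markers 0 of 21 (median -0.21, 17 below 0). Rpe65, the isomerase of the visual cycle, was 5.04, 5.01 and 6.60 FPKM in knock-in, 10.7, 6.44 and 8.27 in knockout and 2.65 to 3.56 in wild-type libraries (log2 -0.64, adjusted p = 0.109). Knock-in and knockout overlapped, and both lay above wild type. Of 11 pigment cell genes all lay below 0 (median -0.42) and 1 was called, Gpnmb, a glycoprotein of melanosomes and of phagocytes, at 1.44 to 1.56 FPKM in knock-in and 2.30 to 2.90 in knockout libraries (log2 -0.77, adjusted p = 0.0397). Its call was lost without any 1 knock-in library, knockout 1 or 2 or wild-type 0 (adjusted p up to 0.203).

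The PPAR, lysosome and Abca transporter lists held 2 or 3 calls each, whereas cholesterol synthesis held 0 called of 21 (median -0.01). Of 22 PPAR receptors and fatty acid oxidation genes, Ppara and Slc25a20 were lower, 0 were higher and 20 did not pass (median -0.05). Slc25a20, the carrier of acylcarnitine into mitochondria, was 6.02 to 6.11 FPKM in knock-in and 7.56 to 9.22 in knockout libraries (log2 -0.48, adjusted p = 0.0353), a call lost in 7 of the 9 fits with a library left out (adjusted p up to 0.187). Other genes that Ppara is known to regulate stood near 0, such as Cpt1a (log2 -0.10, adjusted p = 0.613) and Pdk4 (0.02, adjusted p = 0.993). Of 28 lysosome, autophagy and phagocytosis genes, 1 was higher, 2 were lower and 25 did not pass (median -0.09, 23 below 0). Cd36, a scavenger receptor, was 1.01, 1.21 and 1.65 FPKM in knock-in and 0.656, 0.660 and 0.570 in knockout libraries (log2 0.96, adjusted p = 0.0244). Mertk, the receptor by which the RPE engulfs outer segments, was 2.48, 3.09 and 2.75 FPKM in knock-in and 3.70, 4.77 and 5.09 in knockout libraries (log2 -0.69, adjusted p = 0.0192), and neither Cd36 nor Mertk kept its call with the RPE term. Leaving out knock-in 2, knockout 1 or knockout 2 also ended both calls, as did knock-in 1 for Cd36 and knock-in 0 for Mertk (adjusted p up to 0.0942 and 0.109). Of 11 other Abca transporters, Abca1, the cholesterol exporter (log2 -0.40, adjusted p = 0.0255), and Abca13 (log2 -0.45, adjusted p = 0.0337) were lower and 9 did not pass. The list did not fall with them: 8 of the 11 lay above 0, and the median was 0.10. The call of Abca1 was lost without knock-in 1 or 2 or knockout 0 or 2 (adjusted p up to 0.122), and that of Abca13 in 7 of the 9 fits (up to 0.120).

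The called genes were unevenly spread over the genome. Of 280 windows of 10 Mb with a tested gene (mm9), 7 held 4 or more called genes, and together they held 43 calls, 23.2% of the called and 3.44% of the tested genes. Chromosome 3, which carries Abca4, had 25 called of 737 tested (3.39%). Within 10 Mb of the start of Abca4, 8 of 81 tested genes were called (9.88%). They were Abca4 itself, 4930422G04Rik (log2 0.77), Alpk1, Tifa, Bcar3 (-0.61), Rwdd3 (-0.74), Enpep (-0.73) and 1810037I17Rik (-0.35). Bcar3, an adaptor of integrin signalling, was 8.55, 8.59 and 7.35 FPKM in knock-in and 11.7, 13.2 and 12.3 in knockout libraries (adjusted p = 0.00108), whereas the calls of Rwdd3, Enpep and 1810037I17Rik were each lost in at least 7 fits with a library left out.

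The densest window lay far from Abca4 on the same chromosome, with 10 of 50 tested genes called from 30 to 40 Mb. Of these, 8 lay among the 16 tested genes between 36 and 38 Mb, from Gm11549 (start 36413979) to Gm5148 (end 37623282), and all 8 were lower in knock-in. Bbs7, a subunit of the BBSome that sorts ciliary proteins, was 32.8, 32.6 and 36.6 FPKM in knock-in and 43.0, 54.0 and 69.0 in knockout libraries (log2 -0.70, adjusted p = 0.00100). Cetn4, a centrin, was 3.02, 3.24 and 3.57 FPKM in knock-in and 6.45, 8.05 and 12.1 in knockout libraries (log2 -1.40, adjusted p = 2.06e-04). Exosc9, of the RNA exosome, fell by 0.48 and Bbs12, a BBSome assembly factor, by 0.44 on the log2 scale (adjusted p = 0.00656 and 0.00646).

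Fgf2 (chr3:37247575-37303752) and Nudt6 (chr3:37303906-37318512) close the group, with Gm11549 (log2 -1.70) and Gm5148 (log2 -1.83). Nudt6, which lies antisense to Fgf2, was 3.33, 3.63 and 3.41 FPKM in knock-in and 11.6, 6.98 and 6.57 in knockout libraries (log2 -1.27, adjusted p = 0.00453). The library kit was stranded, but whether the counting used the strand is not given in the sources used here, so reads of this pair may be shared. Against wild type, these 8 genes lay between log2 0.37 and 2.06 in knockout and between -0.16 and 0.29 in knock-in retina, and 0 of the 7 that were tested in RPE/choroid were called there, Gm11549 not being tested. The calls of Gm11549 and Exosc9 were lost in 5 and 1 of the 9 fits with a library left out (adjusted p up to 0.124 and 0.0596). Not every gene of the stretch differed: Spata5, next to Nudt6, stood at log2 0.02 (adjusted p = 0.958), and Anxa5 at 0.09 (0.708).

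**Figure D4:**
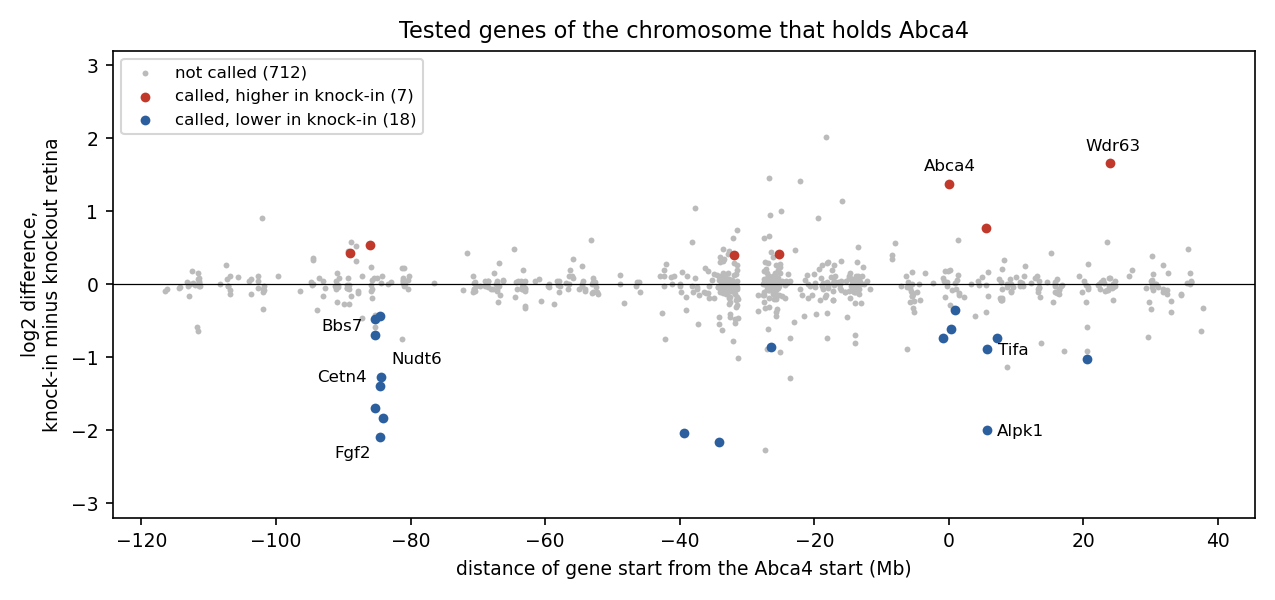
Log2 difference between knock-in and knockout retina for the tested genes of chromosome 3 against the distance of their start from that of Abca4, with 7 genes called higher in red and 18 called lower in blue. The blue points gather far before Abca4, around Cetn4, Fgf2 and Nudt6, and in the 10 Mb after its start, around Alpk1 and Tifa.

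RPE/choroid libraries of the same genotypes, which the retinal test did not use, gave the same contrast in an adjoining tissue. There 70 of 15454 tested genes were called (0.453%), 37 higher and 33 lower in knock-in. Of the 169 genes called in retina and tested in RPE/choroid, 13 were called in both, all in the same direction, a share of 7.03% of the calls in retina and 18.6% of those in RPE/choroid. The sign was the same in 72.2% of the 169 genes and in 46.9% of all 13939 genes tested in both tissues. By Xist and the Y-linked genes, knock-in 0 and 1 and all knockout and wild-type libraries of RPE/choroid were male and knock-in 2 female. Same-numbered libraries of both tissues thus cannot all share a mouse, and the sexes compared differ between the tissues.

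Pttg1 (log2 -4.46 in retina, -3.26 in RPE/choroid) and Alpk1 (-1.99 and -1.23) had the largest shared falls. Tuba1c, an alpha-tubulin, was 43.3, 47.9 and 38.5 FPKM in knock-in and 24.9, 23.8 and 16.8 in knockout retina, and 40.0 to 47.7 in wild type (log2 1.01, adjusted p = 0.00243, and 0.81 in RPE/choroid, adjusted p = 0.00567). Ppt1, a lysosomal thioesterase whose loss causes neuronal ceroid lipofuscinosis, was 53.1, 54.8 and 64.2 FPKM in knock-in and 42.5, 32.2 and 35.5 in knockout retina (log2 0.63, adjusted p = 0.0111, and 0.67 in RPE/choroid, adjusted p = 9.01e-04). Knock-in retina lay above knockout in both genes without overlap, and 1 fit with a library left out lost the call of Ppt1 (adjusted p = 0.0568). Neighbours were also shared: Hdhd3 and Alad, an enzyme of haem synthesis, on chromosome 4, and Ccdc75 and Qpct, a glutaminyl cyclase, on chromosome 17, all higher in knock-in, with Gm6548 beside Ccdc75 lower. Polr3d and Acbd4 were higher and Elk1 and Pigy lower in both tissues. With a retinal library left out, the retinal calls of Acbd4 and Elk1 were each lost in 7 of the 9 fits, Pigy in 5, Hdhd3 in 4, Alad and Gm6548 in 2 and Ccdc75 in 1 (adjusted p up to 0.207), and retinal FPKM of the groups overlapped in Acbd4, Pigy, Hdhd3 and Alad.

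A difference between tissues was tested as an interaction and passed in 27 of 16222 genes (0.166%), 16 of them called in retina. Ppara was the clearest, with log2 -4.05 in retina and -0.15 in RPE/choroid. Abca4 differed by log2 1.38 in retina and 0.56 in RPE/choroid (interaction 0.85, adjusted p = 0.125).

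**Figure D5:**
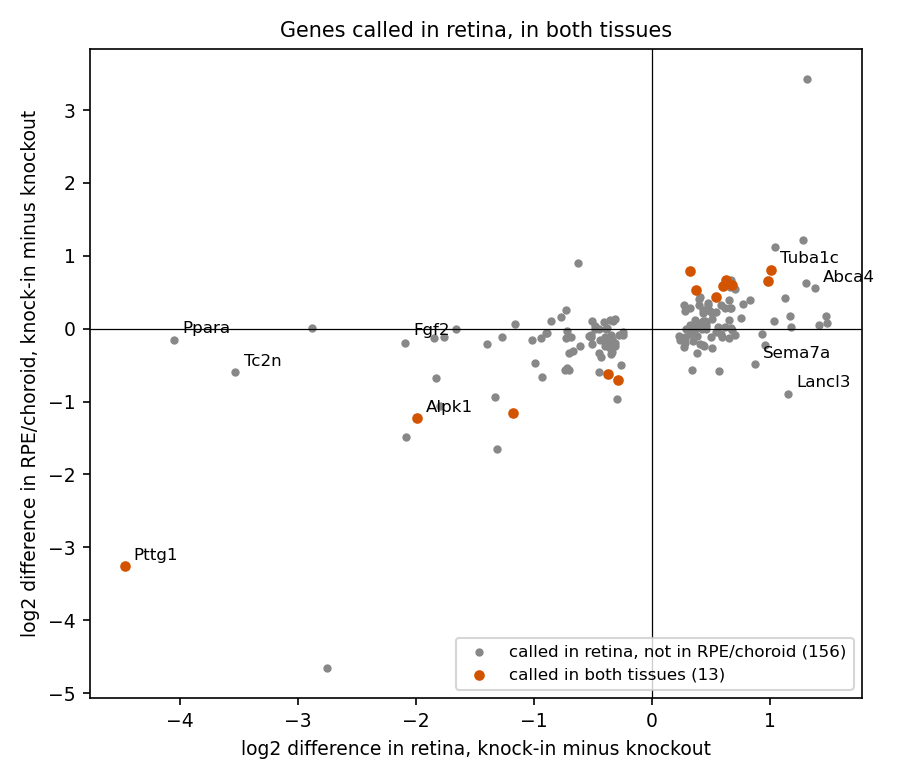
Log2 difference between knock-in and knockout in RPE/choroid (vertical) against that in retina (horizontal) for the 169 genes called in retina and tested in both tissues. The 13 genes called in both are orange and lie to the lower left and upper right, with Pttg1 farthest out; Ppara is far from 0 in retina (-4.05) and near it in RPE/choroid (-0.15).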

How the data were processed

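Per the labels' protocols, RNA from dissected retina and RPE/choroid was depleted of ribosomal RNA, made into stranded libraries and read as 100 bp pairs. The submitters' processing notes name TopHat, Bowtie2, Cufflinks and the build mm9; versions, annotation and whether counting used the strand are not given in these notes or the labels. The deposited tables give expected counts of fragments per gene and library (98.5% whole in retina, 98.4% in RPE/choroid, the others rounded) as well as FPKM, per the file headers. A further table, of the authors' own comparison, lists each gene's p-value and q-value and served only as a check. No table row belonged to another sample (0 in each tissue). The tables mark 10 retinal gene estimates as failed.

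The rounded counts entered edgeR's quasi-likelihood test (version 4.0.16, R 4.3.3, robust, TMM, filterByExpr), with the 9 libraries of a tissue fitted together. Biological coefficients of variation were 0.114 (retina) and 0.154 (RPE/choroid). The interaction used all 18 libraries. A gene was called at a Benjamini-Hochberg adjusted p under 0.05. FPKM served for levels and overlap. The retinal fit was tested on simulated independent counts, without shared lens, RPE or sex differences between libraries. No changed gene was taken from the lowest expressed. Of genes changed 1.5-, 2- and 4-fold between knock-in and knockout retina, the fit recovered 71.9%, 87% and 98.5%. Of its 186 calls (14607 genes) 14 were wrong. The RPE/choroid and interaction fits were not simulated. No 2 libraries of a group were copies.

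The genes compared and the 35 gene lists were chosen with earlier results of these data known, and 13 list members were matched under older RefSeq symbols. Named genes are Abca4, the called genes with the 12 highest and 12 lowest log2 differences, no overlap and a mean of at least 1 FPKM in a group, the 10 of smallest p, called genes within 10 Mb of Abca4, and up to 4 called members of a list, or up to 2 of smallest p where none was called; small RNAs, Rik, Gm, LOC and pseudogene symbols and sex genes are left out of the first 3 sets. Others named (those of chromosome 3, 36 to 38 Mb, those called in both tissues, and familiar members of a list) were chosen after their values were seen. Coordinates of genes are mm9 as deposited, in which overlapping genes can share 1 locus; sequences are GRCm38. Alternatives were DESeq2 1.42.0, RLE scaling, limma 3.58.1 on log2(FPKM + 1) and log2(FPKM + 0.1), other filters, the compared libraries alone, terms for sex, lens and RPE content, a replicate block and leaving out each library. Some genes are not reported here.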

Additional observations from a re-analysis of the deposited data

Results flagged for a closer look

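For 8 named genes the difference between knock-in and knockout was not the same in retina and RPE/choroid, by the interaction test of edgeR in all 18 libraries with Benjamini-Hochberg adjustment. Ppara was lower in knock-in retina by log2 -4.05 and stood at -0.15 in RPE/choroid (difference -3.88, adjusted p = 2.05e-10). Fgf2 differed by -2.09 and -0.20 (difference -1.87, adjusted p = 0.0331), Spata6 by -1.16 and 0.06 (difference -1.19, adjusted p = 0.00103) and Tifa by -0.89 and -0.06 (difference -0.81, adjusted p = 0.0277). Sema7a differed by 0.87 and -0.49 (difference 1.38, adjusted p = 0.00442), and Lancl3, a gene of the LanC-like family, by 1.15 and -0.89 (difference 2.08, adjusted p = 0.0354). Ssbp4 differed by 1.18 and 0.02 (difference 1.19, adjusted p = 0.0148) and Osgep by 0.75 and 0.15 (difference 0.62, adjusted p = 0.0263). None of the 8 was called in RPE/choroid. The number of genes with such a difference, 27, ran from 7 to 42 with 1 library left out.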

How the results depend on the processing

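Against 185 called genes in retina, DESeq2 called 324 (180 shared), limma 20 with either pseudocount, and edgeR 90 with an RPE term and 289 with a sex term; leaving out 1 library gave 103 to 216. RLE scaling called 185 (184 shared), the compared libraries alone 160, a lens term 250, no filter 214 and a mean of at least 1 FPKM 164. The authors' deposited table calls 323 of 13797 genes (2.34%), of which 116 are shared, 35.9% of theirs and 62.7% of these. Called list members numbered 22, against 38 with DESeq2, 4 and 4 with limma, 8 with the RPE term, 35 with the sex term and 11 to 26 with 1 library left out. RPE/choroid calls numbered 70, and 28 to 74 with 1 knock-in or knockout library left out. The interaction gave 27, and 7 to 42 with 1 of the 12 knock-in and knockout libraries left out: 15 and 14 without knock-in retina 0 and 1, 17 without knockout retina 1, 17 and 12 without knock-in RPE/choroid 1 and 2, 7 and 11 without knockout RPE/choroid 1 and 2 and 42 without knockout RPE/choroid 0. Deviations of same-numbered knock-in and knockout libraries from their group means correlated at -0.468, -0.303 and -0.093. Those of other-numbered libraries correlated at -0.325 to 0.457. No pairing by number was seen, but with 3 libraries a group these values cannot exclude it. With the number as a replicate block, calls were 271 in retina, 31 among list members, 36 in RPE/choroid and 28 for the interaction. Abca4 kept its call in every alternative run, with log2 from 1.28 to 1.55. No called named gene changed sign in any of them; 27 of 48 lost their call with the RPE term and 37 with limma at a pseudocount of 1. With 3 libraries a group, 71.9% of simulated 1.5-fold changes were found, so smaller ones may go undetected at this depth and spread. Causes of these differences were not tested.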

Other observations

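Further called genes, outside the naming rule, were chosen here after their values were seen. Agtr1a, an angiotensin II receptor, was 0.131, 0.0424 and 0.0814 FPKM in knock-in, 0.668, 0.603 and 0.661 in knockout and 0.259 to 0.577 in wild-type retina (log2 -2.88, adjusted p = 0.00279). Npy2r, a receptor of neuropeptide Y on the same chromosome as Abca4, was 0.0686, 0.0939 and 0.309 FPKM in knock-in and 0.618, 0.462 and 0.689 in knockout retina (log2 -2.04, adjusted p = 0.0165). In both genes knock-in libraries were the lowest. Piwil2, a protein of the germline piRNA pathway, was 0.301, 0.208 and 0.159 FPKM in knock-in, 0.815, 0.772 and 0.780 in knockout and 0.118 to 0.223 in wild-type retina (log2 -1.80, adjusted p = 0.00243), so knockout alone was high. Cftr, the chloride channel mutated in cystic fibrosis, showed the same order (0.0774 to 0.111 FPKM in knock-in and 0.216 to 0.334 in knockout, log2 -1.66, adjusted p = 0.0103). Gpsm3, a regulator of G protein signalling, was 28.9, 21.9 and 20.9 FPKM in knock-in, 13.5, 13.2 and 8.65 in knockout and 9.56 to 14.2 in wild-type retina (log2 1.03, adjusted p = 0.00113), so knock-in alone was high. Nup62-il4i1 was listed at 0 in all knock-in libraries, at 0.200 to 0.432 FPKM in knockout and at 0, 0.136 and 0.307 FPKM in wild-type libraries (adjusted p = 0.0477). With a library left out, its call was lost in 6 of 9 fits and those of Npy2r and Cftr in 2 each (adjusted p up to 0.171, 0.0827 and 0.0805). All p-values are from the same edgeR fit.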
